A study of Mus musculus with 10 samples.

Results

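The comparison set 3 lines with the Trp53 hairpin (shTrp53; lines 384, 386 and 387) against 5 lines with a control hairpin (shCtrl; lines 376, 377, 378, 382 and 383), all of them grown from lung metastases of mouse esophageal squamous cell carcinoma. These are 8 of the 10 lines of the series, and the other two, a pair of primary lines, had no part in the tests. All 8 carry the genotype Trp53R172H/-, a missense p53 mutation over a null allele, on a strain given as mixed background. The cells were recovered from lungs harvested at week 8, expanded in culture and sorted for YFP, so none of the lines holds a normal Trp53 allele and each was read after growth in a dish. Whether each line comes from its own mouse is not stated in the labels, so p-values measure only the spread among these lines. The groups also follow the line numbers, with all shTrp53 lines numbered above all shCtrl lines, so the hairpin and anything else that follows the numbers cannot be told apart. Of the 12806 named genes in the table, 12120 had enough counts to be tested, and the account below covers all of them by gene family, by role and line by line.

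p53 is a transcription factor that normally restrains division and triggers death or repair after DNA damage. Missense mutants such as R172H, the mouse counterpart of a human hotspot mutation, lose normal DNA binding, often accumulate, and can act through other transcription factors. Squamous carcinoma of the esophagus arises from the stratified lining, and the lung is a common site of its spread.

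The hairpin target was low in each shTrp53 line. Trp53 stood at 101, 102, 94.5, 115 and 131 CPM in the shCtrl lines and 5.16, 7.36 and 5.44 CPM in the shTrp53 lines, in the line order given above, which is kept throughout. CPM is a gene's count scaled to a common library size. The ranges did not overlap (log2 fold change of shTrp53 over shCtrl -4.18, SE 0.19, edgeR adjusted p = 3.45e-06). Libraries held 11644562 to 18431216 counts. Of the squamous marker list, 11 of 12 genes were in the table, and their summed level was 9170 to 13700.0 CPM in shCtrl and 6740.0 to 9540.0 CPM in shTrp53 lines. The marker Krt14, a basal keratin, was at 3816 CPM or more in every line, and Trp63, the p63 gene of basal squamous cells, at 44.8 CPM or more. At an edgeR adjusted p under 0.05, Krt5 and Krt6a of the 11 were lower (18.2%, against 10.8% of all genes). Cdh1 was higher (9.09%, against 10.9%), and the list's median log2 fold change was -0.48. The number lower was 0 without line 384 or 386, 1 without line 376 or 387 and 4 without line 378. The 3 fibroblast markers in the table summed to 3.3 to 10.9 CPM in shCtrl and 1.5 to 6.24 CPM in shTrp53 lines. The endothelial pair stayed at or below 1.33 CPM and the muscle marker at or below 4.74 CPM. Only Cd68, a lysosomal marker of macrophages that epithelial cells can also express, was in the table of the 10 immune markers, at 96.2 to 133 CPM in shCtrl and 128 to 143 CPM in shTrp53 lines, and no lung epithelium marker was in it. Apart from Cd68, the markers of other cell types in the table were thus low. In such bulk libraries, fewer cells of a type and less RNA per cell cannot be told apart.

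Nearly equal numbers of genes changed each way, but more rises than falls passed a test against a 1.5-fold change, which depends on spread as well as size. At an edgeR adjusted p under 0.05, 2634 of the 12120 genes were called (21.7%), 1326 higher (10.9%) and 1308 lower (10.8%) in the shTrp53 lines. Against a fold change of 1.5 in place of none, 330 genes passed, 223 higher and 107 lower. The median log2 fold change over all genes tested was -0.01. The count was 1154 without line 384, 1172 without line 386, 1522 without line 377 and 1690 without line 378, and it was highest, at 3239, without shCtrl line 383. The groups of lines did not overlap in 3560 genes (29.4%), and 10.2% of genes were called higher and 9.79% called lower with no overlap.

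The 5 shCtrl lines were not alike. On the principal component that held 50.5% of the variance among the 8 lines, shCtrl lines 376, 377, 378, 382 and 383 stood at -51.04, -38.69, -32.07, -13.83 and -8.4, and shTrp53 lines 384, 386 and 387 at 45.16, 60.73 and 38.13. Lines 382 and 383 lay nearest to the shTrp53 lines. With a term in the edgeR fit for lines 376 to 378 against the rest, which compares the shTrp53 lines with lines 382 and 383, 981 genes were called, 529 higher and 452 lower, and 856 of them were among the 2634. Of the 2634 calls, 812 also passed in each of 8 fits that left out 1 line in turn. A gene whose values are given below was among these 812 unless the lines that ended its call are named, and where a count of 4 or more genes moved by more than 1.5 times without a line, that line and the count are given. Smaller counts can move that far with 1 or 2 genes. Where a family count stands without a share, it is to be read against 10.9% higher and 10.8% lower over all genes.

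Transcription factors as a class were called more often higher than lower. Of 717 tested, 74 were higher (10.3%, against 10.9% of all genes) and 34 lower (4.74%, against 10.8%), at a median log2 fold change of 0.07. The number higher was 31 without line 386, 33 without line 384, 36 without line 377 and 48 without line 378 or 387, and the number lower was 14 without line 386, 15 without line 377, 16 without line 384, 18 without line 378 and 22 without line 387. Gata4, a GATA factor of heart and foregut endoderm, stood at 2.1, 2.6, 3.2, 4.46 and 4.67 CPM in the shCtrl lines and 13.5, 18.9 and 9.21 CPM in the shTrp53 lines. Every shTrp53 line was above every shCtrl line (log2 fold change 2.02, SE 0.31, edgeR adjusted p = 0.00303). Irx2, an Iroquois homeobox factor, stood at 5.81, 5.9, 6.92, 8.59 and 8.89 CPM in the shCtrl lines and 22, 25.4 and 15.2 CPM in the shTrp53 lines. Here too the groups were apart, and shCtrl lines 382 and 383 were the nearest to the shTrp53 lines (log2 fold change 1.53, SE 0.22, edgeR adjusted p = 0.0024). Casz1, a zinc finger factor of heart and neural development, was at 3.01, 4.43, 4.31, 8.67 and 8.52 CPM in the shCtrl lines and 19.9, 17.6 and 13.5 CPM in the shTrp53 lines. Its shTrp53 lines lay close together and above all controls (log2 fold change 1.56, SE 0.33, edgeR adjusted p = 0.0109). Eomes, a T-box factor of early development and lymphocytes, was low throughout, at 1.12, 1.65, 0.669, 1.35 and 1.26 CPM in the shCtrl lines and 3.87, 7.16 and 3.66 CPM in the shTrp53 lines. It was still higher in each shTrp53 line (log2 fold change 2.02, SE 0.35, edgeR adjusted p = 0.0051).

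Of 40 bHLH factors 4 were higher, Mxd1, Bhlhe41, Twist1 and Myc (10.0%, against 10.9%), and 2 lower, and the number higher was 2 without line 377, 378, 384 or 386. Mxd1, a MAX partner that opposes MYC, stood at 5.11, 7.03, 8.48, 14.2 and 12.6 CPM in the shCtrl lines and 42.7, 27.9 and 31.2 CPM in the shTrp53 lines. The rise separated the groups, and lines 382 and 383 stood between the other controls and the shTrp53 lines (log2 fold change 1.84, SE 0.30, edgeR adjusted p = 0.00393). Bhlhe41, a clock repressor also reported downstream of mutant p53, was at 27.9, 34.6, 35, 37.5 and 45.1 CPM in the shCtrl lines and 79, 118 and 88.9 CPM in the shTrp53 lines. All 5 control lines lay below the lowest shTrp53 line (log2 fold change 1.41, SE 0.17, edgeR adjusted p = 0.00116). The nuclear receptor Nr1d1, the clock repressor REV-ERB alpha, was at 18.4, 23.8, 24.5, 64.7 and 71.2 CPM in the shCtrl lines and 124, 173 and 90.1 CPM in the shTrp53 lines. Lines 382 and 383 sat nearer to the shTrp53 range than to lines 376 to 378 (log2 fold change 1.67, SE 0.44, edgeR adjusted p = 0.0241), and the call ended without line 377, 378, 384 or 386 (highest adjusted p = 0.0891).

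The family of GATA, T-box and AP-2 factors had 6 of 13 tested members higher and 1 lower (median log2 fold change 0.86). Beside Gata4 and Eomes these were Tbx15 (1.36), Tbx18 (0.94), Gata6 (0.92) and Tfap2a (0.53). Tbx18 missed the threshold without line 386 (adjusted p = 0.057), Gata6 without line 376, 377, 378, 384, 386 or 387 (highest adjusted p = 0.107) and Tfap2a, whose groups overlapped, without line 377, 378, 384 or 387 (highest adjusted p = 0.144). The member that fell was Tbx3, a repressor that keeps progenitor cells from senescence, at 36.6, 41.1, 33.3, 28.8 and 35.3 CPM in the shCtrl lines and 19.3, 8.4 and 10.3 CPM in the shTrp53 lines. Line 384 was the highest of the shTrp53 lines and still below the controls (log2 fold change -1.47, SE 0.26, edgeR adjusted p = 0.0054). Zfp385b, a zinc finger gene, rose from near 0, at 0.14, 0.261, 0.297, 0.758 and 0.593 CPM in the shCtrl lines and 1.86, 11.7 and 1.89 CPM in the shTrp53 lines. Its size rested on line 386 (log2 fold change 3.64, SE 0.70, edgeR adjusted p = 0.00768), without which the log2 fold change was 2.2. Of 56 homeobox factors 7 were higher (12.5%, against 10.9%) and 1, Irx3, was lower (1.79%), and the number higher was 1 without line 377, 2 without line 384 or 386 and 4 without line 378. Of 23 forkhead factors 5 were higher (21.7%), or 1 without line 386.

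Of 12 tested NF-kB, NFAT and NFI genes, 3 were lower, Nfkb2, Relb and Rel (25%, against 10.8%), and none was higher. Leaving out any line gave 3 or 4, and the other 9 were not called. NF-kB factors switch on cytokine, adhesion and survival genes, and Nfkb2 and Relb together form the noncanonical dimer. Nfkb2 stood at 17, 16.8, 18.6, 21.1 and 20.4 CPM in the shCtrl lines and 8.61, 8.92 and 9.99 CPM in the shTrp53 lines. The controls spanned a narrow range and the shTrp53 lines a narrow range below it (log2 fold change -1.03, SE 0.17, edgeR adjusted p = 0.00365). Relb was at 26.1, 27.4, 30.9, 30.2 and 29.3 CPM in the shCtrl lines and 16.9, 12.8 and 13.3 CPM in the shTrp53 lines. Its groups were likewise apart (log2 fold change -1.0, SE 0.15, edgeR adjusted p = 0.00303), and both genes kept their call with the line-number term. Rel, the c-Rel subunit of lymphoid and stress responses, was at 14.4, 18.1, 12.4, 10.4 and 11.5 CPM in the shCtrl lines and 6.09, 4.49 and 7.05 CPM in the shTrp53 lines. All shTrp53 lines were below all controls (log2 fold change -1.18, SE 0.24, edgeR adjusted p = 0.00971), with an adjusted p of 0.0584 with the line-number term. Irf1, an interferon and NF-kB responsive factor, was at 23.3, 23.3, 23, 16.9 and 25.5 CPM in the shCtrl lines and 12.4, 5.6 and 12 CPM in the shTrp53 lines. Line 386 held the lowest value and line 382 the lowest control (log2 fold change -1.16, SE 0.26, edgeR adjusted p = 0.0135).

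Other factors fell as well. Rbl1, the pocket protein p107 that restrains E2F, stood at 78.9, 81, 58.4, 38.9 and 34.4 CPM in the shCtrl lines and 19.9, 16.1 and 24.7 CPM in the shTrp53 lines. The controls formed a high set, lines 376 to 378, and a lower one, lines 382 and 383, and the shTrp53 lines lay below both (log2 fold change -1.52, SE 0.31, edgeR adjusted p = 0.00914). Its relative Rbl2 (p130) was higher (0.66), though not without line 376, 377, 382, 384 or 386 (highest adjusted p = 0.15). Zfp365, a zinc finger gene linked to genome stability, was at 16.3, 25.4, 19, 20.2 and 12.4 CPM in the shCtrl lines and 5.67, 4.69 and 9.6 CPM in the shTrp53 lines. It was lower in each shTrp53 line (log2 fold change -1.48, SE 0.29, edgeR adjusted p = 0.00824). Gli3, a hedgehog effector, fell by 1.14 on the log2 scale and lost its call without line 384 (adjusted p = 0.0553). Ehf, an epithelial ETS factor, had line 384 at 17.4 CPM, beside the lowest control at 17.7 CPM. Its call (log2 fold change -1.13, SE 0.34, edgeR adjusted p = 0.0367) ended without line 376, 377, 378, 382, 386 or 387 (highest adjusted p = 0.124), and without line 384 the log2 fold change was -1.78. Zfp202 was lower by a similar amount (log2 fold change -1.0, SE 0.30, edgeR adjusted p = 0.0372) and lost its call without line 378, 382, 383, 384, 386 or 387 (highest adjusted p = 0.118). Trp73, the p53 family member p73, was at 7.07, 2.87, 2.23, 0.253 and 0.37 CPM in the shCtrl lines and 0.287, 0.325 and 0.111 CPM in the shTrp53 lines. The groups overlapped, since lines 382 and 383 were as low as the shTrp53 lines, and the call was lost without line 376, 377, 378, 384, 386 or 387 (highest adjusted p = 0.13). The adjusted p with the line-number term was 0.797.

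**Figure D1:**
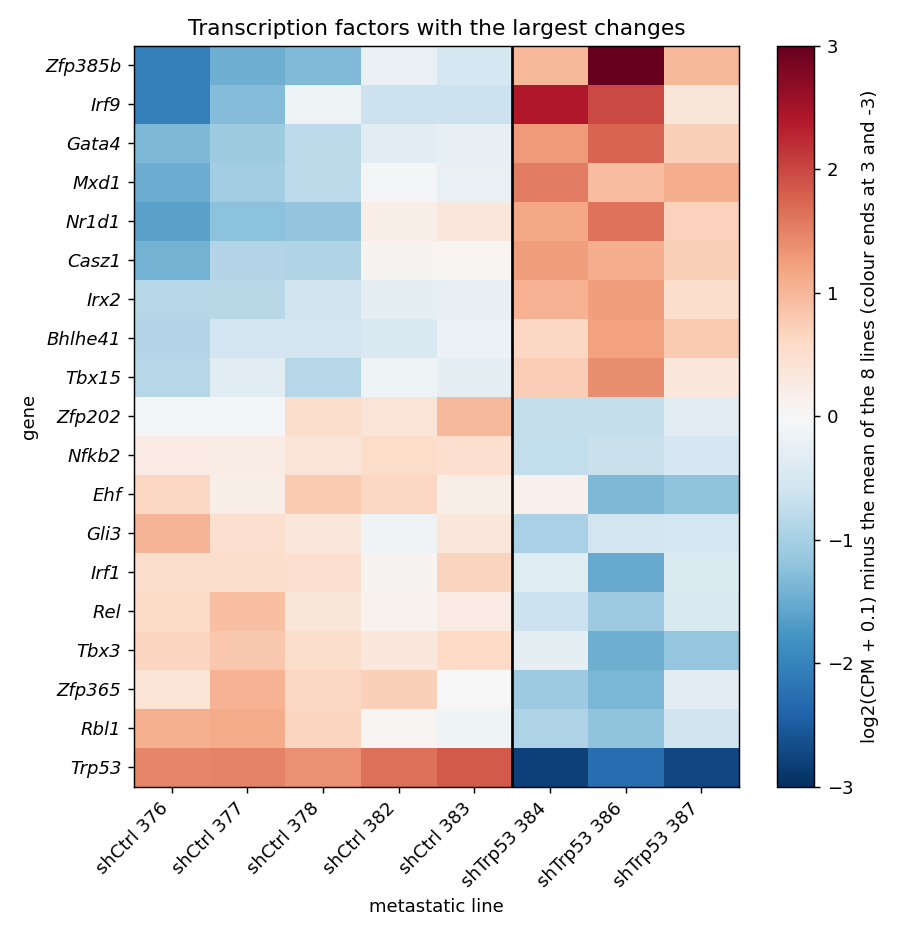
Level of transcription factors among the 10 largest rises and the 10 largest falls, as log2(CPM + 0.1) minus the mean of the 8 lines, with metastatic lines in columns and the vertical line between shCtrl and shTrp53. Red marks lines above the mean and blue lines below it; shCtrl lines 382 and 383 are paler than lines 376 to 378 for Mxd1, Nr1d1, Casz1 and Rbl1.

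Secreted proteins were called higher more often than all genes. Of 268 tested, 51 were higher (19%, against 10.9%) and 34 lower (12.7%, against 10.8%), at a median log2 fold change of 0.12. The number lower was 15 without line 384 and 20 without line 386. Of 25 TGF-beta superfamily ligands and antagonists 2 were higher, Bmp3 and Inhba (8.0%), and 4 lower, Tgfb2, Tgfbi, Fstl1 and Twsg1 (16.0%). Those lower numbered 1 without line 378 or 384 and 2 without line 377 or 382. Bmp3, a TGF-beta family ligand that dampens bone morphogenetic signals, was at 2.17, 3.21, 3.05, 4.72 and 3.63 CPM in the shCtrl lines and 29.5, 38.1 and 13.8 CPM in the shTrp53 lines. Lines 384 and 386 were highest (log2 fold change 3.02, SE 0.33, edgeR adjusted p = 0.000642). Inhba, the activin A subunit, was at 13.7, 13, 15.6, 25.4 and 58 CPM in the shCtrl lines and 211, 62.5 and 202 CPM in the shTrp53 lines. Line 386 at 62.5 CPM was just above control line 383 at 58 CPM (log2 fold change 2.66, SE 0.53, edgeR adjusted p = 0.00898), and the adjusted p was 0.0695 with the line-number term. The neurotrophin Bdnf was higher (1.57), but not without line 386 (adjusted p = 0.1). The macrophage-stimulating factor Mst1 (1.45) was likewise higher, but not without line 377, 384, 386 or 387 (highest adjusted p = 0.101).

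Of 14 tested interleukins and interferons, 5 were higher and none lower (median log2 fold change 0.59), and 4 or 5 were higher whichever line was left out. Il1rn, the interleukin 1 receptor antagonist, stood at 29.6, 17.1, 29.6, 74.9 and 60.8 CPM in the shCtrl lines and 187, 421 and 176 CPM in the shTrp53 lines. All shTrp53 lines were above the controls, of which lines 382 and 383 were highest (log2 fold change 2.63, SE 0.45, edgeR adjusted p = 0.0054). Il34, a ligand of the CSF1 receptor, was at 3.36, 3.39, 6.77, 5.47 and 4.59 CPM in the shCtrl lines and 19.6, 29.6 and 21.2 CPM in the shTrp53 lines. The groups were far apart (log2 fold change 2.32, SE 0.26, edgeR adjusted p = 0.000661). The other ligand of that receptor, Csf1, moved the opposite way (-2.78), from 59.7 CPM or more in the controls to 14.4 CPM or less. Il24, an IL-10 family cytokine, was at 163, 135, 84.2, 157 and 94.7 CPM in the shCtrl lines and 275, 893 and 255 CPM in the shTrp53 lines. Its size rested on line 386 (log2 fold change 1.91, SE 0.39, edgeR adjusted p = 0.0103), and without that line the log2 fold change was 1.08. Tslp was the largest rise, and Clcf1 (0.92) was the smallest, its call lost without line 377, 378, 384 or 386 (highest adjusted p = 0.109).

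Of 13 chemokines 3 were lower and 1, Cxcl10 (2.27, groups overlapping), was higher. Cxcl10 lost its call without line 378 or 386 (highest adjusted p = 0.142). Ccl7, a monocyte attractant like Ccl2, stood at 7.35, 1.91, 7.36, 0.758 and 1.7 CPM in the shCtrl lines and 0.287, 0 and 0.111 CPM in the shTrp53 lines. It was near 0 in each shTrp53 line (log2 fold change -4.81, SE 1.04, edgeR adjusted p = 0.0121), so the fold change rests on few counts, and without line 384 it was -5.81 on the log2 scale. Cx3cl1 was lower (-1.63) with overlapping groups, and its call was lost without line 376, 377, 378, 384, 386 or 387 (highest adjusted p = 0.154).

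Inhibitors of proteases were more often higher than lower. Of 21 serpins 8 were higher and 4 lower, or 2 without line 384, and of 10 other secreted protease inhibitors 4 were higher and none lower. Serpinb1b, an intracellular and released inhibitor of neutrophil-type proteases, stood at 20.3, 12.6, 19.4, 23.3 and 18.4 CPM in the shCtrl lines and 94, 118 and 82.2 CPM in the shTrp53 lines. The shTrp53 lines were tightly grouped above the controls (log2 fold change 2.38, SE 0.19, edgeR adjusted p = 0.000107). Serpinb9b, a granzyme-type inhibitor gene, was at 13.9, 10.5, 13.5, 16.6 and 10.7 CPM in the shCtrl lines and 61.7, 46.3 and 52 CPM in the shTrp53 lines. It rose by a similar amount in all 3 lines (log2 fold change 2.04, SE 0.18, edgeR adjusted p = 0.000168). Serpinb2, plasminogen activator inhibitor 2, was at 79.8, 53.7, 36.7, 86.8 and 133 CPM in the shCtrl lines and 251, 547 and 237 CPM in the shTrp53 lines. Line 386 was highest (log2 fold change 2.15, SE 0.39, edgeR adjusted p = 0.00655). Spint1, which blocks hepatocyte growth factor activator and matriptase, was at 4.13, 5.3, 5.36, 8.08 and 4.82 CPM in the shCtrl lines and 21.1, 25.4 and 25.7 CPM in the shTrp53 lines. Its 3 shTrp53 lines agreed closely (log2 fold change 2.13, SE 0.22, edgeR adjusted p = 0.000518). Wfdc2 (2.03) and Cst3, cystatin C (0.61), also rose, and Tfpi (2.02) did so except without line 384 (adjusted p = 0.0549).

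Of 23 tested secreted and membrane serine proteases 3 were higher (13%, against 10.9%) and 2, Klk8 and Tmprss11e, lower (8.7%, against 10.8%), shares near the background. Those lower numbered 0 without line 387 and 1 without line 376, 377, 378, 382, 383, 384 or 386. Those higher were St14, Prss8 and Prss16 (0.99), of which St14 and Prss8 were chosen for description after their values were seen. St14, matriptase, stood at 9.45, 9.9, 6.1, 9.52 and 7.48 CPM in the shCtrl lines and 20.0, 24.3 and 25.3 CPM in the shTrp53 lines. Its groups did not overlap (log2 fold change 1.45, SE 0.20, edgeR adjusted p = 0.00167). Prss8, prostasin, was at 2.94, 7.03, 3.94, 6.65 and 6.3 CPM in the shCtrl lines and 18.1, 21 and 13.8 CPM in the shTrp53 lines. It was higher in each shTrp53 line (log2 fold change 1.72, SE 0.29, edgeR adjusted p = 0.00434). Hgfac, the activator of hepatocyte growth factor, was the largest rise among secreted proteins. Ctsh, a lysosomal aminopeptidase, was at 28.1, 24.6, 28.3, 29.8 and 27 CPM in the shCtrl lines and 56.1, 87.3 and 54.8 CPM in the shTrp53 lines, and with Ctsb and Ctsl made 3 of 9 cathepsins higher (log2 fold change 1.27, SE 0.17, edgeR adjusted p = 0.00154). S100a3 (2.01), S100a16 (1.08) and S100a14 (0.72) were the 3 of 11 S100 genes that were higher (27.3%, against 10.9%). S100a3 was 1.29 without line 386, and S100a14 lost its call without line 377 or 386 (highest adjusted p = 0.112).

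Within the serpin A3 cluster the members moved in opposite directions. Serpina3g stood at 13.8, 9.12, 9.37, 10.3 and 6.37 CPM in the shCtrl lines and 57.7, 63.6 and 22.2 CPM in the shTrp53 lines (log2 fold change 2.29, SE 0.32, edgeR adjusted p = 0.00218). Serpina3h was at 147, 100.5, 91.3, 117 and 86.5 CPM in the shCtrl lines and 36.1, 16.9 and 35.1 CPM in the shTrp53 lines (log2 fold change -1.88, SE 0.27, edgeR adjusted p = 0.00239), and Serpina3i at 27.2, 18.8, 21.2, 25.2 and 17.7 CPM in the shCtrl lines and 6.6, 2.47 and 8.38 CPM in the shTrp53 lines (log2 fold change -1.91, SE 0.34, edgeR adjusted p = 0.00558). The first rose and the others fell in each shTrp53 line. These genes are close copies, and reads that several of them share could have been split among them by the counting.

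Of 37 matricellular and small proteoglycan genes 5 were higher, Smoc2, Ecm1, Pcolce, Efemp2 and Bglap3 (13.5%, against 10.9%), and 6 lower, Matn2, Agrn, Vwa1, Hspg2, Spp1 and Pxdn (16.2%, against 10.8%). The number higher was 3 without line 386, and the number lower was 3 without line 384. Vwa1, a von Willebrand domain matrix protein, stood at 77.2, 76.3, 54.2, 40.1 and 59.7 CPM in the shCtrl lines and 14.6, 14.1 and 18.6 CPM in the shTrp53 lines. The groups were well apart (log2 fold change -1.96, SE 0.23, edgeR adjusted p = 0.000913). Matn2, matrilin 2, was at 17, 15.8, 21.2, 14.3 and 12.4 CPM in the shCtrl lines and 4.73, 3.65 and 6.22 CPM in the shTrp53 lines. All 3 shTrp53 lines were below all controls (log2 fold change -1.72, SE 0.25, edgeR adjusted p = 0.00218). Edn1, endothelin 1, was at 8.33, 6.95, 7.74, 10.1 and 8.15 CPM in the shCtrl lines and 1.94, 0.716 and 3.77 CPM in the shTrp53 lines. Line 387 was the least reduced (log2 fold change -1.93, SE 0.42, edgeR adjusted p = 0.0119), so that the log2 fold change without it was -2.63, and the call ended without line 384 (adjusted p = 0.0507). Tgfbi, a TGF-beta induced matrix protein counted above, had a log2 fold change of -2.07 and lost its call without line 378 or 384 (highest adjusted p = 0.0569). Among 14 WNT ligands and antagonists, 3 were lower (Wnt5a, Wnt10a and Wisp1), or 5 without line 383, and 1, Wnt6, was higher. Wnt5a, a noncanonical ligand of migration and polarity, was at 33.5, 18.7, 28.5, 20.6 and 21 CPM in the shCtrl lines and 9.32, 8.27 and 10.2 CPM in the shTrp53 lines. Its groups were apart (log2 fold change -1.40, SE 0.22, edgeR adjusted p = 0.0036). Of 7 tested hormones of the prolactin, stanniocalcin and natriuretic type, 4 were higher. These were Prl3d1, Prl2c2 (2.17), Prl2c5 (1.57) and Prl6a1 (1.71), placental genes of which Prl2c2 and Prl2c5 are near-identical copies. Only Prl3d1 passed without each line, and the count was 1 without line 384 and 2 without line 377, 378 or 387. Prl6a1 lost its call whichever of the 8 lines was left out. Prl2c2 stood at 17.7 CPM in line 384 and at 1.95 CPM, inside the control range, in line 386. Without line 384 its log2 fold change was 1.04.

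**Figure D2:**
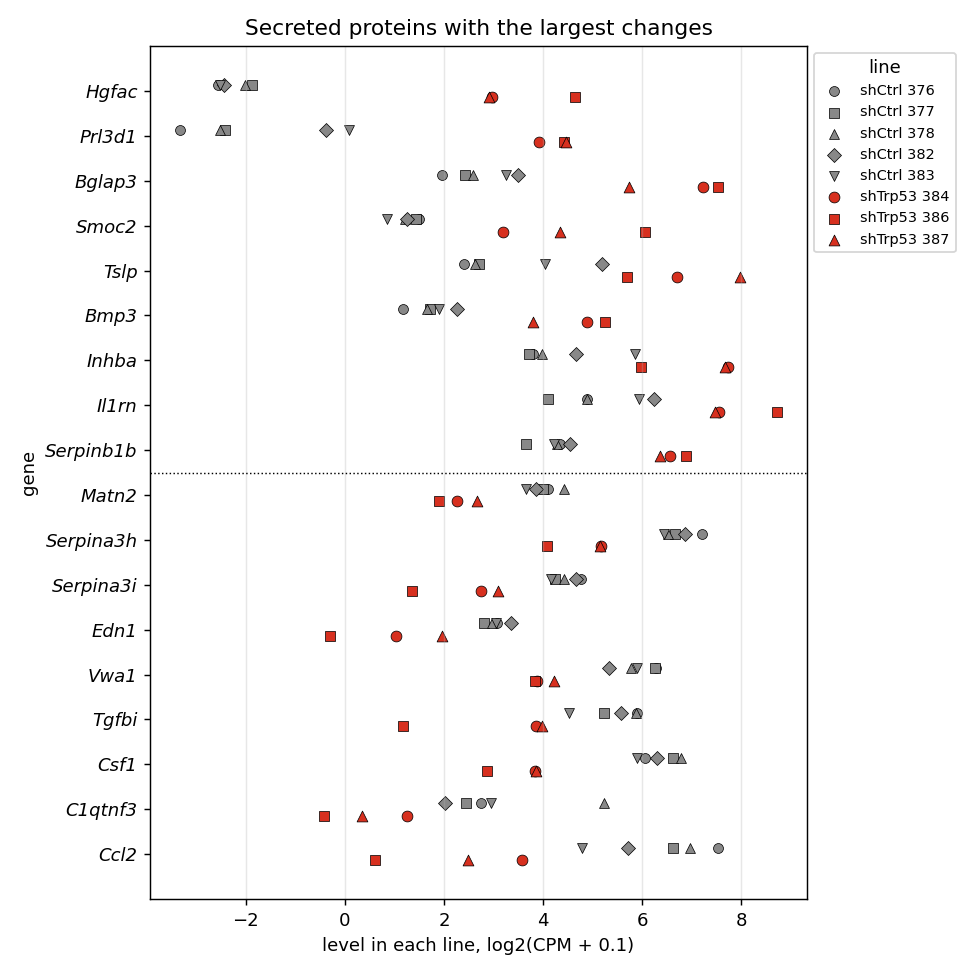
Level in each metastatic line, log2(CPM + 0.1), of secreted proteins among the 10 largest rises (above the dotted line) and the 10 largest falls, grey for shCtrl and red for shTrp53. Red points lie to the right of grey ones above the dotted line and to the left below it, since genes with overlapping groups were not taken.

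Surface proteins were called close to the background rate in both directions. Of 509 tested, 63 were higher (12.4%) and 61 lower (12%), at a median log2 fold change of -0.03. The number higher was 32 without line 386, 38 without line 377 or 384 and 39 without line 378, and the number lower was 27 without line 386, 30 without line 384, 36 without line 377 and 39 without line 378. Of 17 claudins and tight junction membrane proteins, 6 were higher and 1, Esam, lower. These proteins seal the space between epithelial cells. Cldn6, a claudin of embryonic epithelia, stood at 49, 31.6, 24.6, 35.1 and 41.5 CPM in the shCtrl lines and 131, 267 and 177 CPM in the shTrp53 lines. The highest control was below the lowest shTrp53 line by a wide margin (log2 fold change 2.40, SE 0.25, edgeR adjusted p = 0.000565). Clmp, a junction adhesion molecule, was at 0.63, 1.04, 1.49, 1.18 and 0.815 CPM in the shCtrl lines and 4.09, 4.88 and 3.11 CPM in the shTrp53 lines. It was low in all lines and higher in the shTrp53 ones (log2 fold change 1.96, SE 0.34, edgeR adjusted p = 0.00465). Cldn4 (1.96) was higher except without line 384 or 387 (highest adjusted p = 0.07). Cldn1 (1.77) was higher except without line 386 (adjusted p = 0.111), where it stood at 1.11. Ocln and Marveld3, tight junction proteins with a shared membrane domain, completed the 6.

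The gap junction family went the opposite way. Of 7 connexins and pannexins, 5 were lower (71.4%, against 10.8%), at a median log2 fold change of -0.95, and 1 was higher. These form channels between neighbouring cells. Gja1, connexin 43, stood at 296, 317, 303, 367 and 368 CPM in the shCtrl lines and 173, 182 and 261 CPM in the shTrp53 lines. Line 387 was the least reduced (log2 fold change -0.68, SE 0.16, edgeR adjusted p = 0.0154). Gjb5 (-2.49), whose groups overlapped, and Panx1 (-0.55) were among the others that fell. Each of the 5 lost its call without line 384 and without line 386. The count was 0 without line 384 or 386, 1 without line 377 and 3 without line 378 or 387. Without line 387, Gjb5 had a log2 fold change of -3.32. Gjc1, connexin 45, rose (log2 fold change 1.58, SE 0.22, edgeR adjusted p = 0.0021), at 7.07, 5.99, 10.8, 5.22 and 8 CPM in the shCtrl lines and 22.2, 21.1 and 23.3 CPM in the shTrp53 lines. It kept its call without each line and with the line-number term.

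Several proteins held in the membrane by a lipid anchor rose. Of 32 Ly6-type and other GPI-linked genes, 8 were higher and 1 lower. Ly6c2, a surface antigen best known from monocytes, stood at 0.56, 0.521, 0.669, 0.59 and 0.296 CPM in the shCtrl lines and 7.6, 13.9 and 8.1 CPM in the shTrp53 lines. It was under 1 CPM in each control and above 7 CPM in each shTrp53 line (log2 fold change 4.21, SE 0.32, edgeR adjusted p = 8.72e-05). Its near-identical neighbour Ly6c1 was at 200.5, 125, 143, 202 and 126 CPM in the shCtrl lines and 264, 491 and 278 CPM in the shTrp53 lines (log2 fold change 1.11, SE 0.24, edgeR adjusted p = 0.0112), and reads shared by both cannot be assigned with certainty. Lypd5 was uneven, at 0.42, 0.695, 0.595, 0.758 and 0.37 CPM in the shCtrl lines and 6.38, 0.781 and 14.5 CPM in the shTrp53 lines. Line 386 barely cleared the controls (log2 fold change 3.67, SE 0.70, edgeR adjusted p = 0.00741), and without line 387 the log2 fold change was 2.65. Msln (0.85), Cd59a (1.11) and Cd24a (0.66) rose too. Lypd3 (0.59) and Ly6k (1.19) were higher but lost their calls in 7 of the 8 fits with a line left out. Cd109, a GPI-linked TGF-beta co-receptor, was the member that fell (-1.62), and its call ended without line 377, 378 or 384 (highest adjusted p = 0.0563).

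Other surface genes with large rises were scattered over families. Atp13a4, a P5-type transport ATPase, stood at 0.07, 0.521, 0.744, 1.01 and 0 CPM in the shCtrl lines and 8.89, 12.8 and 10.8 CPM in the shTrp53 lines. The groups were far apart (log2 fold change 4.54, SE 0.61, edgeR adjusted p = 0.00175). Adgrg2, an adhesion G protein-coupled receptor, was at 9.66, 5.56, 9, 4.72 and 5.56 CPM in the shCtrl lines and 20.6, 48 and 17.5 CPM in the shTrp53 lines. Line 386 set much of the size (log2 fold change 2.06, SE 0.35, edgeR adjusted p = 0.00466), with 1.47 without it. Cd5, a receptor known from lymphocytes, was low, at 1.68, 1.22, 1.19, 0.674 and 0.0741 CPM in the shCtrl lines and 2.94, 9.63 and 6.16 CPM in the shTrp53 lines (log2 fold change 2.68, SE 0.58, edgeR adjusted p = 0.0116), and missed the threshold without line 386 (adjusted p = 0.052). Of 13 Eph receptors and ephrins, 4 were higher and none lower. Epha4, a guidance receptor, was at 7.98, 5.64, 6.1, 5.22 and 10.0 CPM in the shCtrl lines and 14.7, 37.7 and 13.1 CPM in the shTrp53 lines (log2 fold change 1.64, SE 0.35, edgeR adjusted p = 0.011), and 1.0 without line 386. Efnb2 (1.82), Efna3 (1.48) and Efna5 (0.80) were its ligands that were higher. Efnb2 was lost without line 386 (adjusted p = 0.0583), at 1.23, Efna3 without line 377 or 384 (highest adjusted p = 0.125) and Efna5 without line 384, 386 or 387 (highest adjusted p = 0.0668), and the family count was 2 without line 384 or 386.

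Of the 61 surface genes that fell, those described first had a mean of at least 5 CPM in the controls and no overlap between the groups. Ltb4r1, the high-affinity leukotriene B4 receptor, stood at 20.9, 19.5, 18.3, 15.2 and 14.1 CPM in the shCtrl lines and 1.43, 2.99 and 5.99 CPM in the shTrp53 lines. Every shTrp53 line was below the controls, line 384 most (log2 fold change -2.32, SE 0.38, edgeR adjusted p = 0.00396), and without line 387 the log2 fold change was -2.98. Hcar2, the receptor for niacin and hydroxybutyrate, was at 45.6, 37.9, 38.8, 38.5 and 21.6 CPM in the shCtrl lines and 11.1, 6.44 and 10.8 CPM in the shTrp53 lines. Control line 383 was lowest of its group and still above the shTrp53 lines (log2 fold change -1.94, SE 0.27, edgeR adjusted p = 0.00193). Stab1, a scavenger receptor, was at 18.8, 13.5, 18.1, 12.7 and 12.4 CPM in the shCtrl lines and 4.09, 1.76 and 4.33 CPM in the shTrp53 lines. The groups were apart (log2 fold change -2.15, SE 0.31, edgeR adjusted p = 0.0024). Sigirr, an inhibitory member of the interleukin 1 receptor family, was at 7.21, 9.03, 11.8, 8.08 and 4.37 CPM in the shCtrl lines and 2.29, 0.846 and 2.89 CPM in the shTrp53 lines (log2 fold change -2.0, SE 0.42, edgeR adjusted p = 0.0106). Of 33 cytokine receptors 6 were lower (18.2%, against 10.8%) and 6 higher (18.2%, against 10.9%). The number higher was 1 without line 377, 378, 384 or 386 and 2 without line 387. Larger falls at lower levels, named here after their values were seen, included Il1rl1, the interleukin 33 receptor, and Il18rap, a subunit of the interleukin 18 receptor. Il1rl1 stood at 3.92, 3.82, 1.93, 3.62 and 4.74 CPM in the shCtrl lines and 0.43, 0.391 and 0.333 CPM in the shTrp53 lines (log2 fold change -3.21, SE 0.41, edgeR adjusted p = 0.00131). Il18rap stood at 6.86, 6.77, 4.98, 2.53 and 2.37 CPM in the shCtrl lines and 0.43, 0.586 and 0.888 CPM in the shTrp53 lines (log2 fold change -2.85, SE 0.50, edgeR adjusted p = 0.0051). Both were low in all lines and lower in the shTrp53 lines.

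Among adhesion and guidance molecules, Flrt2 stood at 86.8, 44.5, 50.8, 34.9 and 52.7 CPM in the shCtrl lines and 19.4, 13.3 and 11.7 CPM in the shTrp53 lines. It is a ligand of UNC5 receptors, and line 376 was its highest control (log2 fold change -1.87, SE 0.30, edgeR adjusted p = 0.00348). Emp3, an epithelial membrane protein, was at 129.7, 118, 116, 73.9 and 105 CPM in the shCtrl lines and 10.8, 49 and 12.8 CPM in the shTrp53 lines. Line 386 was reduced much less than lines 384 and 387 (log2 fold change -2.16, SE 0.47, edgeR adjusted p = 0.0123), and the log2 fold change without it was -3.19. Ptpru, a receptor phosphatase, was at 4.2, 5.82, 5.5, 6.4 and 4.3 CPM in the shCtrl lines and 1.86, 1.11 and 2.22 CPM in the shTrp53 lines (log2 fold change -1.58, SE 0.31, edgeR adjusted p = 0.0077). Robo1, the SLIT receptor, fell by 1.60 and the multidrug pump Abcb1b by 1.61 on the log2 scale, Robo1 except without line 386 or 387 (highest adjusted p = 0.086) and Abcb1b except without line 384 (adjusted p = 0.0596). Of 22 classical cadherins and protocadherins 5 were lower and 1 higher. The protocadherins Pcdhb7 (-2.17) and Pcdhb20 (-1.67) held without each line, while Pcdhb16, Pcdh19 and Pcdh18 did not, and the count was 2 without line 377, 384 or 386 and 3 without line 376, 378 or 387. Members of the beta cluster share sequence, so their counts may be split. Cdh1 was higher.

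**Figure D3:**
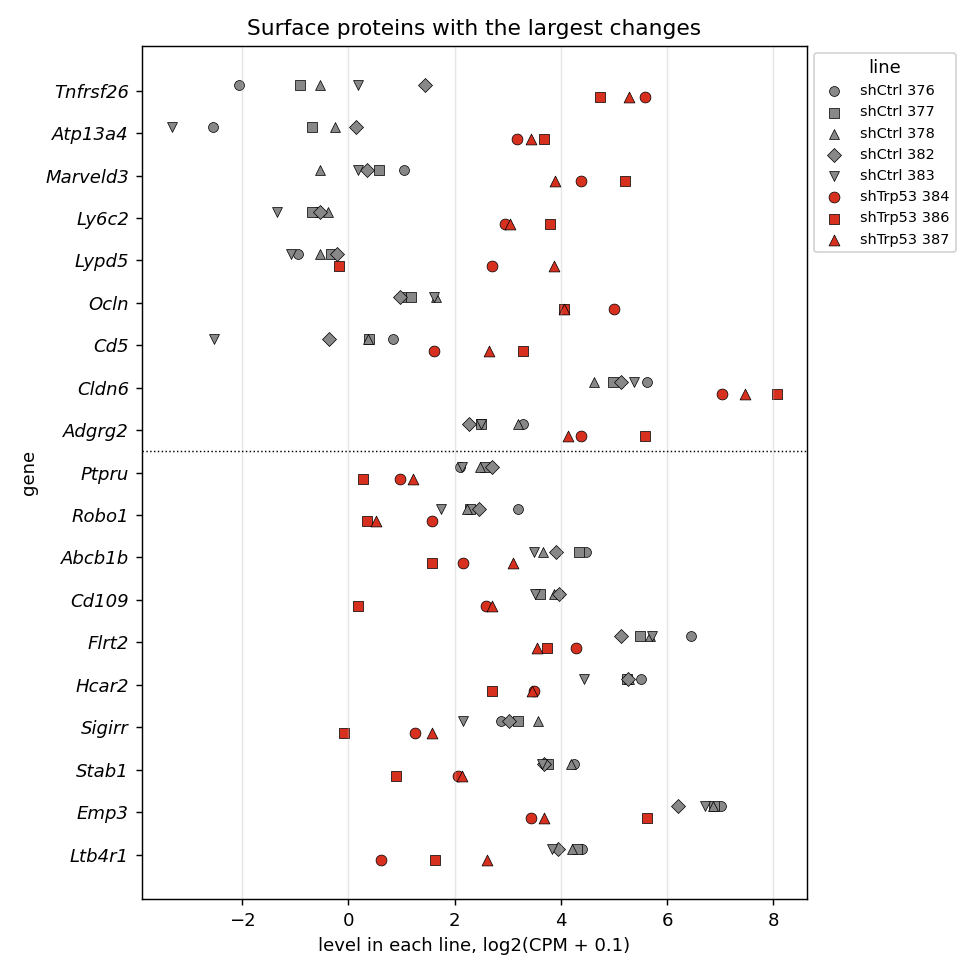
Level in each metastatic line, log2(CPM + 0.1), of surface proteins among the 10 largest rises (above the dotted line) and the 10 largest falls, grey for shCtrl and red for shTrp53. The shTrp53 lines differ widely among themselves for Lypd5, where line 386 lies beside the controls, and for Emp3, where it lies well above lines 384 and 387.

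Keratins changed in both directions. Of 17 tested keratins 4 were higher, Krt7, Krt8, Krt18 and Krt39 (23.5%, against 10.9%), and 3 lower, Krt5, Krt6a and Krt20 (17.6%, against 10.8%), or 1 without line 384 or 386. Krt7, a keratin of ducts and simple epithelia, stood at 380.5, 419, 323, 351 and 487 CPM in the shCtrl lines and 1015, 959 and 1344 CPM in the shTrp53 lines. The groups were far apart (log2 fold change 1.5, SE 0.16, edgeR adjusted p = 0.000642). Krt39, a hair-type keratin, was low, with lines 382 and 383 highest among the controls, at 0.21, 0.868, 1.78, 3.79 and 2.89 CPM in the shCtrl lines and 11.1, 18.4 and 8.27 CPM in the shTrp53 lines (log2 fold change 2.73, SE 0.59, edgeR adjusted p = 0.0119). Its adjusted p was 0.0676 with the line-number term.

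Microtubule genes were called lower more often than all genes. Of 21 tubulins and stathmins 10 were lower and none higher (47.6%, against 10.8%), and of 29 kinesins 11 were lower and none higher. Tubb3, the beta tubulin best known from neurons, stood at 66.3, 72.2, 50.8, 32.1 and 34.3 CPM in the shCtrl lines and 15.9, 3.58 and 15.4 CPM in the shTrp53 lines. Line 386 was lowest, and lines 382 and 383 were about midway (log2 fold change -2.13, SE 0.47, edgeR adjusted p = 0.0129). Tuba1b, a main alpha tubulin, was at 653, 617, 464, 265 and 241 CPM in the shCtrl lines and 183, 142 and 178 CPM in the shTrp53 lines. The controls split the same way (log2 fold change -1.41, SE 0.34, edgeR adjusted p = 0.0169), and the call was lost without line 384 or 386 (highest adjusted p = 0.0693). The tubulin count was 3 without line 386, 4 without 384, 5 without 377 or 378 and 6 without 387, and 1 with the line-number term. Tubulin genes share long stretches of sequence, so reads may be split among them. Kif21b, a kinesin of neurons and lymphocytes, was at 1.47, 1.3, 1.86, 1.77 and 1.33 CPM in the shCtrl lines and 0.359, 0.0651 and 0.0555 CPM in the shTrp53 lines. It fell to near 0 in lines 386 and 387 (log2 fold change -3.28, SE 0.58, edgeR adjusted p = 0.00544), and was -4.49 without line 384. Kif17 fell by 1.82 on the log2 scale except without line 384 or 386 (highest adjusted p = 0.0714). The kinesin count was 5 without line 386 and 7 without 384.

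Cell division genes were called lower more often than all genes. Of 196 tested cell division genes 64 were lower (32.7%, against 10.8%) and 10 higher (5.1%). The number lower was 24 without line 386, 27 without line 384, 33 without line 377, 34 without line 387 and 39 without line 378. By complex, 10 of 21 centromere proteins, 12 of 24 condensin, cohesin and SMC genes, 11 of 23 Aurora, Polo and NEK kinases and 11 of 20 genes around the anaphase-promoting complex were lower. Kif20a, a kinesin that carries the chromosomal passenger complex to the midzone, stood at 221, 235, 199, 106 and 104 CPM in the shCtrl lines and 63.5, 29.6 and 58.3 CPM in the shTrp53 lines. Lines 382 and 383 lay between lines 376 to 378 and the shTrp53 lines (log2 fold change -1.77, SE 0.35, edgeR adjusted p = 0.00913). Cdc20, the activator of the anaphase-promoting complex, was at 419, 368, 339.8, 241 and 244 CPM in the shCtrl lines and 168, 101 and 129 CPM in the shTrp53 lines. The same order was seen, with line 386 lowest (log2 fold change -1.28, SE 0.23, edgeR adjusted p = 0.00546). Ncapg, a condensin subunit, was at 109, 110.4, 105, 80.9 and 76.5 CPM in the shCtrl lines and 48.7, 44.6 and 51.6 CPM in the shTrp53 lines (log2 fold change -0.99, SE 0.16, edgeR adjusted p = 0.00348). Rcc2, which places passenger proteins at centromeres, was at 165, 159.5, 146, 134 and 111 CPM in the shCtrl lines and 73.1, 63 and 77.3 CPM in the shTrp53 lines (log2 fold change -1.01, SE 0.15, edgeR adjusted p = 0.00279). Both were lower in every shTrp53 line and held with the line-number term. With that term, however, 18 cell division genes were lower in place of 64. By complex these counts were 5 centromere proteins, 3 condensin, cohesin and SMC genes, 4 kinases and 3 anaphase-promoting genes.

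Of 26 MCM, ORC and GINS genes 6 were lower and 2 higher, none of the 6 held without each line, and 0 were lower with the line-number term. Mcm6, a subunit of the replicative helicase, was at 426, 410.3, 345, 154 and 134 CPM in the shCtrl lines and 119.5, 126 and 120.5 CPM in the shTrp53 lines. Lines 382 and 383 lay close to the shTrp53 lines, and the adjusted p was 0.28 with the term. Without line 383 the count was 10, without line 376 or 387 it was 2, and without line 377, 378, 384 or 386 it was 1. The mitotic counts also rested on the shTrp53 lines. Without line 386 they were 5 centromere proteins, 4 condensin and cohesin genes, 4 kinases and 6 genes around the anaphase-promoting complex, and without line 384 they were 5, 5, 6 and 6. Without line 377 there were 6 centromere proteins and 7 anaphase-promoting genes, and without line 387 there were 6 condensin and cohesin genes and 7 anaphase-promoting genes.

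Promoters of mitotic genes often hold a short element, TTTGAA, and CCAAT boxes, written ATTGG on the other strand. In the 250 bases before the RefSeq start, which were found for 9565 of the tested genes, TTTGAA on either strand was in 10.5% of all promoters, in 20.4% of 162 cell division promoters and in 16 of 54 (29.6%) of the cell division genes called lower. ATTGG on either strand was in 36.9%, 47.5% and 59.3%. The shares in all genes called lower were 13.6% and 39.0%. TTTGAA was not particular to cell division genes. It was also in 11 of 45 promoters (24.4%) of interferon-induced genes and in 3 of the 10 called higher among them. ATTGG was in 31.1% of those 45. A match is a run of letters and not evidence of a bound factor. The promoters of the 3 cell division genes with TTTGAA that fell most are shown to let the elements be seen in place. Genes of a chromosome from which no sequence is printed, and those under an older symbol, were left out of this choice. Both elements are in capitals in either orientation. Each sequence runs 5′ to 3′ along the gene, from RefSeq, and the last base is the one before the start. The build is not the authors', and no value was read by coordinate.
Cdc20 (GRCm38.p6, chr4:118437344-118437593, minus strand): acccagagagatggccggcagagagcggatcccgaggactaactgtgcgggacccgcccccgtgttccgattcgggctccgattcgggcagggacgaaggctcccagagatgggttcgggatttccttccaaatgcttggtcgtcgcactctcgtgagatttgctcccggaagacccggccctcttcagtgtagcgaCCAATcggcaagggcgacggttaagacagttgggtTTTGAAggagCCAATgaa
Ccnb2 (GRCm38.p6, chr9:70421555-70421804, minus strand): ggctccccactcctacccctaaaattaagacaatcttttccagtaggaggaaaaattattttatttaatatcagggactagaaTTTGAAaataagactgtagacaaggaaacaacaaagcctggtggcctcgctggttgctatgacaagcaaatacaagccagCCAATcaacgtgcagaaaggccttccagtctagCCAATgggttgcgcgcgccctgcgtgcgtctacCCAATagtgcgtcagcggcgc
Cdk1 (GRCm38.p6, chr10:69352913-69353162, minus strand): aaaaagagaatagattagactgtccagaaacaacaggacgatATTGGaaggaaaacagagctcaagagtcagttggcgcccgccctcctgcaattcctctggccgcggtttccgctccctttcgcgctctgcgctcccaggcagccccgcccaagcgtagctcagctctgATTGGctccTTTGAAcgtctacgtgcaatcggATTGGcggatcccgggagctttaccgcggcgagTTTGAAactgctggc
TTTGAA begins 18 bases before the start in Cdc20, 167 bases in Ccnb2, and 71 and 15 bases in Cdk1. Ccnb2, cyclin B2, stood at 228, 218, 247, 175 and 131 CPM in the shCtrl lines and 93.4, 57.9 and 102 CPM in the shTrp53 lines (log2 fold change -1.24, SE 0.24, edgeR adjusted p = 0.00755). Cdk1, its kinase, was at 376, 336, 275, 146 and 117 CPM in the shCtrl lines and 111, 97.8 and 109 CPM in the shTrp53 lines. Line 383 lay near line 384 (log2 fold change -1.23, SE 0.36, edgeR adjusted p = 0.0348), and the call ended without line 376, 377, 378, 384, 386 or 387 (highest adjusted p = 0.11).

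Genes that the literature links to mutant p53 were counted from a list of 50 tested genes. Of these 16 were lower (32.0%) and 4 higher (8.0%), at a median log2 fold change of -0.46, and the count of lower genes was 10 without line 384 or 386. The count of higher genes was 1 without line 386 and 2 without line 384. Of the 16, 9 act in cell division, such as Plk1, a kinase of mitotic entry, at 140.3, 148, 117, 60.5 and 63.9 CPM in the shCtrl lines and 38.8, 27.8 and 35.2 CPM in the shTrp53 lines (log2 fold change -1.64, SE 0.32, edgeR adjusted p = 0.00806). Nfkb2, Abcb1b and Trp73, described above, are among the rest. Of 28 genes of the normal p53 response, 3 were higher and 2 lower, near the background shares, and the number higher was 0 without line 384, 1 without line 377, 386 or 387 and 6 without line 383. Those lower numbered 0 without line 386, 1 without line 376, 377, 378, 384 or 387 and 4 without line 383.

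Genes of nucleotide synthesis and glycolysis were more often lower than higher. Of 34 genes of one-carbon, serine and nucleotide synthesis 12 were lower and 1 higher, and of 24 glycolytic genes 10 were lower and 2 higher. Cad, the enzyme that starts pyrimidine synthesis, stood at 16.2, 10.1, 7.21, 5.3 and 7.19 CPM in the shCtrl lines and 1.43, 2.73 and 2.05 CPM in the shTrp53 lines. It was lower in each shTrp53 line (log2 fold change -2.14, SE 0.40, edgeR adjusted p = 0.00676). Impdh2, which commits purines to guanine nucleotides, was at 131, 116, 107, 93.6 and 94.8 CPM in the shCtrl lines and 43.9, 35.7 and 60.1 CPM in the shTrp53 lines (log2 fold change -1.22, SE 0.19, edgeR adjusted p = 0.00309). Adss, on the adenine branch, was at 429, 430.2, 416, 466 and 300.3 CPM in the shCtrl lines and 162, 181 and 233 CPM in the shTrp53 lines. The controls except line 383 were alike (log2 fold change -1.09, SE 0.17, edgeR adjusted p = 0.00343). Tpi1, triosephosphate isomerase, was at 874, 787, 735, 566 and 509 CPM in the shCtrl lines and 292, 251 and 308 CPM in the shTrp53 lines. Its groups were apart (log2 fold change -1.29, SE 0.19, edgeR adjusted p = 0.00242). The synthesis count was 4 without line 386, 6 without 377 or 384 and 7 without 378 or 387, and the glycolysis count was 6 without line 377, 378 or 387. Of 54 glutathione, peroxidase and thioredoxin genes 12 were lower (22.2%, against 10.8%) and 6 higher (11.1%, against 10.9%). The number lower was 5 without line 384 or 386, and the number higher was 2 without line 384. Gstp2, a glutathione transferase with the near-identical copy Gstp1, was at 52.5, 60.3, 66.4, 77 and 45.9 CPM in the shCtrl lines and 24.4, 8.85 and 4.83 CPM in the shTrp53 lines (log2 fold change -2.26, SE 0.45, edgeR adjusted p = 0.00898), and -3.15 without line 384. Mgst3, a microsomal relative, was at 93, 72.3, 58.1, 40.3 and 32.1 CPM in the shCtrl lines and 7.53, 12.6 and 18.9 CPM in the shTrp53 lines. It fell in all 3 lines (log2 fold change -2.17, SE 0.40, edgeR adjusted p = 0.00655).

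Some splicing and translation genes were lower. Of 12 SR splicing factors 6 were lower and none higher, and 4 or 5 were called whichever line was left out. Srsf2 stood at 697, 759, 537, 576 and 549 CPM in the shCtrl lines and 288, 315 and 356 CPM in the shTrp53 lines (log2 fold change -0.96, SE 0.15, edgeR adjusted p = 0.00345). Srsf7 was at 581, 599, 568, 652 and 717 CPM in the shCtrl lines and 229, 326 and 406 CPM in the shTrp53 lines (log2 fold change -0.96, SE 0.18, edgeR adjusted p = 0.00676). Srsf3 was at 559.6, 556, 462, 514 and 447 CPM in the shCtrl lines and 219.9, 226 and 367 CPM in the shTrp53 lines (log2 fold change -0.90, SE 0.18, edgeR adjusted p = 0.00913). In these 3 the shCtrl lines 382 and 383 stood with the other controls rather than between the groups. Srsf6 (-0.78) also held without each line, and Srsf5 (-0.43) and Srsf10 (-0.36) did not. Of 62 translation factors 16 were lower and 1 higher, falling to 3 without line 384, 5 without 386, 9 without 377 and 10 without 387. Of 9 subunits of the CCT chaperonin, which folds tubulin and actin, 8 were lower (88.9%). Tcp1, its alpha subunit, was at 1097, 1001, 772, 528 and 515 CPM in the shCtrl lines and 356, 404 and 405 CPM in the shTrp53 lines. The controls ran from line 376 down to 383 (log2 fold change -1.01, SE 0.25, edgeR adjusted p = 0.0204), and the call was lost without line 384, 386 or 387 (highest adjusted p = 0.0808). The CCT count was 0 without line 384, 3 without 386 and 4 without 377 or 387.

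Membrane traffic genes were called higher more often than all genes. Of 147 tested, 30 were higher (20.4%, against 10.9%) and 9 lower (6.12%), at a median log2 fold change of 0.21. RAB GTPases, given below, were counted apart from these 147. The number higher was 11 without line 384 or 386, 15 without line 378, 17 without line 377, 19 without line 387 and 46 without line 383, and the number lower was 3 without line 386 and 4 without line 384. Of 47 RAB GTPases, the switches that direct vesicles, 14 were higher (29.8%, against 10.9%) and 3 lower (6.38%, against 10.8%). Those lower numbered 0 without line 386 or 387 and 1 without line 377 or 384. Rab4a, of early endosome recycling, stood at 14.8, 10.8, 15.2, 10.5 and 10.4 CPM in the shCtrl lines and 36.4, 44.1 and 35 CPM in the shTrp53 lines. The shTrp53 lines were close together and above all controls (log2 fold change 1.64, SE 0.18, edgeR adjusted p = 0.000655). Rab27b, of secretory vesicles, was at 11.6, 22.7, 22.2, 20.5 and 16.1 CPM in the shCtrl lines and 37.1, 53.9 and 45 CPM in the shTrp53 lines (log2 fold change 1.29, SE 0.22, edgeR adjusted p = 0.00461). Rab8b, of transport to the membrane, was at 37, 28, 38.2, 43.4 and 63.9 CPM in the shCtrl lines and 94.5, 114 and 92.1 CPM in the shTrp53 lines. Line 383 was the highest control (log2 fold change 1.25, SE 0.22, edgeR adjusted p = 0.00544). The higher RAB count was 6 without line 384, 7 without 386, 8 without 377 and 9 without 378 or 387. Snap29, a SNARE of fusion with lysosomes, was at 15.8, 16.4, 17.2, 20.3 and 29.9 CPM in the shCtrl lines and 44.7, 53 and 41.7 CPM in the shTrp53 lines (log2 fold change 1.22, SE 0.21, edgeR adjusted p = 0.00496). Vamp8, its endosomal partner, was at 209, 171, 166, 161 and 186 CPM in the shCtrl lines and 278, 334 and 246 CPM in the shTrp53 lines (log2 fold change 0.68, SE 0.13, edgeR adjusted p = 0.00797). Both rose in each line, and 7 of 31 SNARE genes were higher (22.6%, against 10.9%) and 1 lower. That count ranged from 2, without line 378 or 384, to 11, without line 383, with 3 without line 377 or 386 and 4 without 382 or 387. Of 47 VPS, ESCRT and retromer genes 10 were higher (21.3%, against 10.9%) and 2 lower. The number higher was 4 without line 384 or 386 and 17 without line 383.

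**Figure D4:**
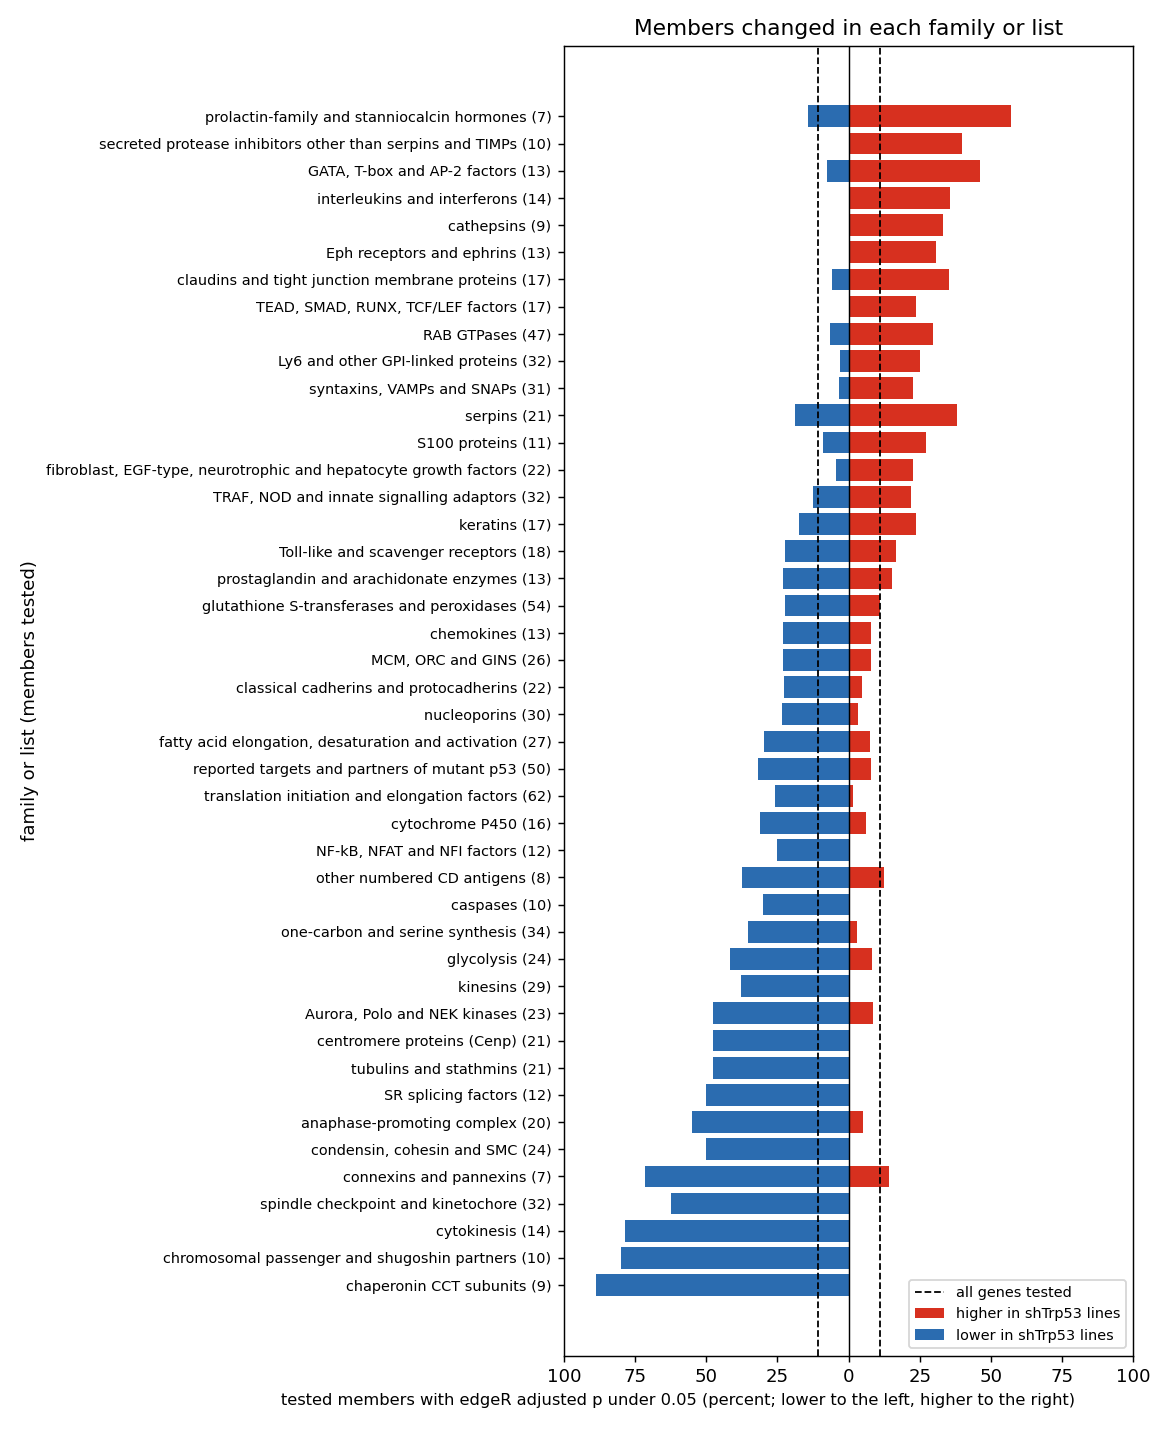
Share of the tested members of each family or list called higher (red, to the right) or lower (blue, to the left) in the shTrp53 lines by edgeR, in percent, with the share over all genes tested as dashed lines; families shown had at least 3 members called in a direction at 2 times the background share or more. The CCT chaperonin has the longest blue bar and the prolactin-type hormones the longest red bar.

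The line-by-line medians show which families moved within the controls too. On log2 CPM relative to the mean of the 8 lines, the median of the 14 cytokinesis genes was 0.62, 0.54, 0.42, -0.05 and -0.03 in the shCtrl lines and -0.44, -0.65 and -0.43 in the shTrp53 lines. Lines 382 and 383 were about midway. The median of the 47 RAB genes was -0.29, -0.12, -0.15, 0.01 and 0.08 against 0.14, 0.17 and 0.17. The SR factors had 0.10, 0.01, 0.04, 0.26 and 0.21 against -0.38, -0.11 and -0.10, with lines 382 and 383 farthest from the shTrp53 lines. The 10 protease inhibitors had -0.07, -0.47, -0.15, -0.13 and -0.26 against 0.53, 0.22 and 0.51, with no order of that kind among the controls. What sets lines 382 and 383 apart was not tested.

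**Figure D5:**
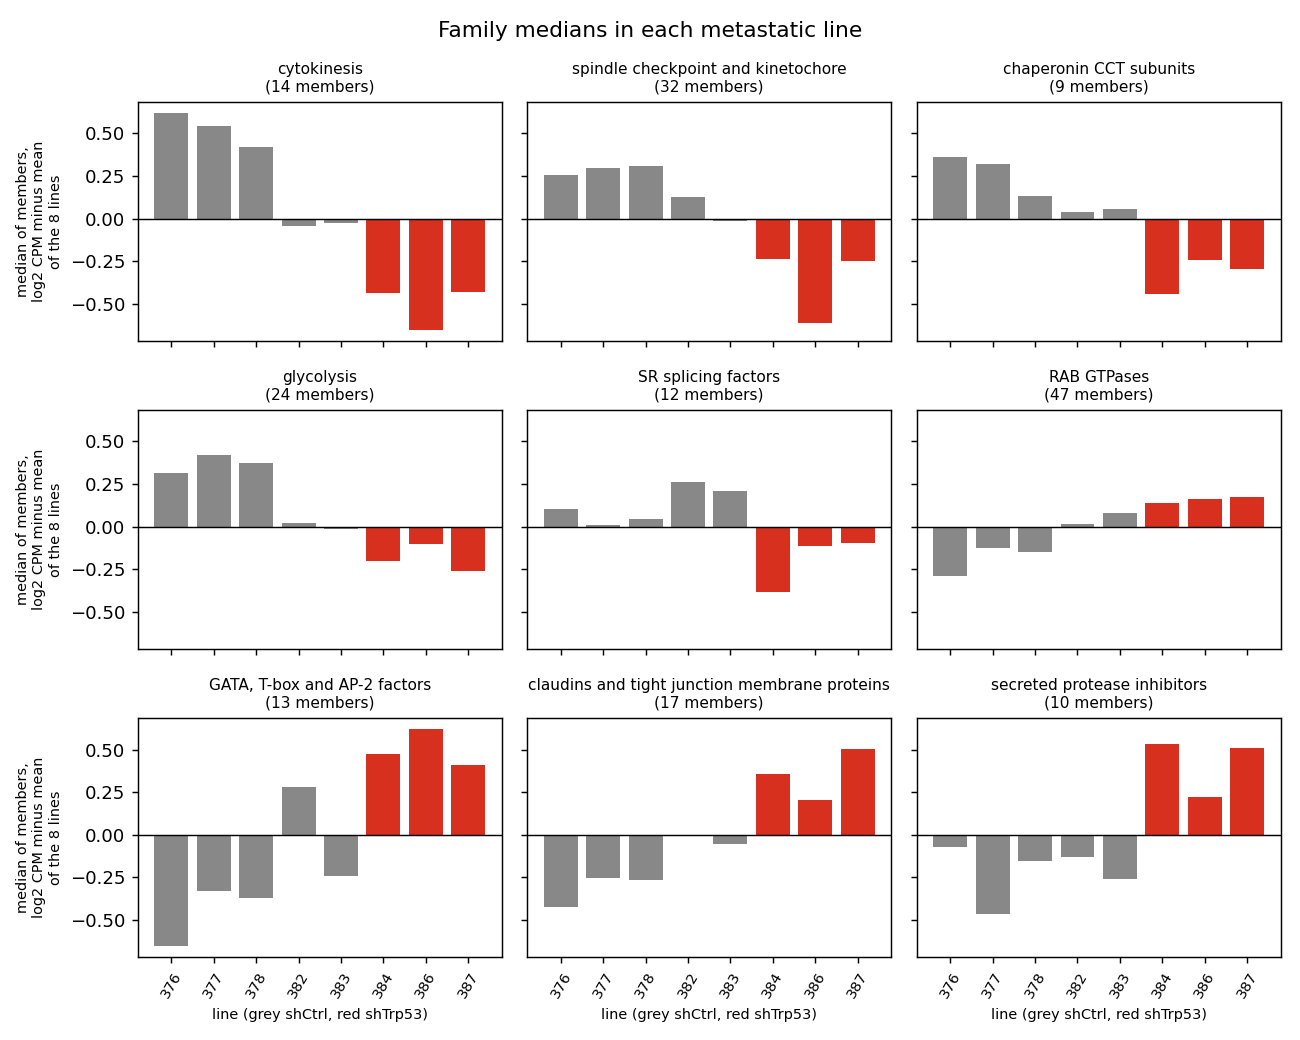
Median over the tested members of 9 families in each metastatic line, as log2 CPM minus the mean of the 8 lines, grey for shCtrl and red for shTrp53. Cytokinesis, spindle and glycolysis genes step down from lines 376 to 378 through 382 and 383 to the shTrp53 lines, whereas SR factors and protease inhibitors do not.

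Interferon-induced genes differed widely among the 3 shTrp53 lines. Interferons signal through STAT and IRF factors, and the IRF factors bind repeats of GAAA in promoters. Of 58 tested interferon-induced genes 12 were higher (20.7%, against 10.9%) and 5 lower (8.62%, against 10.8%). The number higher was 7 without line 384, and the number lower was 2 without line 386. The median of the 58 genes, on log2 CPM relative to the mean of the lines compared, was 0.074, -0.08, 0.246, -0.193 and -0.385 in the shCtrl lines. It was 0.727, -0.253 and -0.219 in the shTrp53 lines. By this median only line 384 was above the controls, and lines 386 and 387 lay inside the control range. Isg15, a ubiquitin-like antiviral protein, stood at 1.33, 2.26, 2.75, 2.19 and 1.63 CPM in the shCtrl lines and 34.6, 14.7 and 3.72 CPM in the shTrp53 lines. Line 384 was by far the highest (log2 fold change 3.12, SE 0.55, edgeR adjusted p = 0.0056), and without line 384 the log2 fold change was 2.18. Rsad2, viperin, was at 0.07, 0, 0.149, 0.0842 and 0 CPM in the shCtrl lines and 4.02, 4.69 and 0.944 CPM in the shTrp53 lines. It was near 0 in the controls and above them in all shTrp53 lines (log2 fold change 5.51, SE 0.74, edgeR adjusted p = 0.00167), and its fold change rests on few control counts. Ifi44 was at 0, 0.0868, 0.744, 0.421 and 0.445 CPM in the shCtrl lines and 19, 2.15 and 0.611 CPM in the shTrp53 lines, with line 387 within the control range (log2 fold change 4.37, SE 1.05, edgeR adjusted p = 0.0179). Without line 384 its log2 fold change was 1.98, and the call ended without line 378 or 384 (highest adjusted p = 0.159). Ifi209 (1.97), Ifi202b (1.71) and Irgm1 (1.16) held without each line. Apol9b (-2.25), Apol10b (-2.83), Ifitm3 (-1.40), Ifitm2 (-0.82) and Rnf213 (-0.57) were the 5 lower genes, of which Apol9b and Apol10b held without each line, Apol10b at -3.67 without line 387. Ifitm3 lost its call without line 386 (adjusted p = 0.066), Ifitm2 without line 377, 378, 384 or 386 (highest adjusted p = 0.0946) and Rnf213 without line 384, 386 or 387 (highest adjusted p = 0.0736).

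A pair of GAAA runs with any 2 bases between them, a simplified interferon element, was in 2.48% of all promoters on either strand, in 19 of 45 (42.2%) of interferon-induced promoters and in 5 of the 10 that belong to genes called higher. In all genes called higher the share was 2.86%. The promoters of the 3 interferon-induced genes with the element that rose most are shown with it in capitals, on whichever strand it lies. Genes of the chromosome without printed sequence, and those under an older symbol, were again left out of the choice.
Rsad2 (GRCm38.p6, chr12:26456453-26456702, minus strand): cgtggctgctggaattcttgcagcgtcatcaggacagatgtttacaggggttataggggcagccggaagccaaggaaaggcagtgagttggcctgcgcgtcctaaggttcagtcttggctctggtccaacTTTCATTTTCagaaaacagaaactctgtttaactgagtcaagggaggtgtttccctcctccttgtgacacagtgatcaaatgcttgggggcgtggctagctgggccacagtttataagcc
Ifit1 (GRCm38.p6, chr19:34640639-34640888, plus strand): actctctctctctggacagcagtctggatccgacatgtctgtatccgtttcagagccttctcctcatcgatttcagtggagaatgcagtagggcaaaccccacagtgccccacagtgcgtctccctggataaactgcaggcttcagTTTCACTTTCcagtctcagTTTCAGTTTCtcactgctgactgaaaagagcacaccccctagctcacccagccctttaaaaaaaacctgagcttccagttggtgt
Isg15 (GRCm38.p6, chr4:156200819-156201068, minus strand): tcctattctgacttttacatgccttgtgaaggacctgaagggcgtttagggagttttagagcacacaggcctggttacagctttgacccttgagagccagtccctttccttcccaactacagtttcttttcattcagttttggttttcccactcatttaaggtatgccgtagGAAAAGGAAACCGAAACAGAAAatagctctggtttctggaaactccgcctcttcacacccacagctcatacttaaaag
Isg15 holds 3 overlapping matches that form 1 stretch, Ifit1 holds 2 and Rsad2 holds 1. Of innate sensors and adaptors, 7 of 32 were higher and 4 lower. Irak2, a kinase of Toll-like receptor signals, was at 12.1, 10.5, 12.3, 10.4 and 9.04 CPM in the shCtrl lines and 18, 32.6 and 22.6 CPM in the shTrp53 lines (log2 fold change 1.17, SE 0.20, edgeR adjusted p = 0.00524). Tmem173, the DNA sensor adaptor STING, was higher (1.78) except without line 377, 386 or 387 (highest adjusted p = 0.119), and the number higher was 4 without line 377 and 3 without line 386. The number lower was 2 without line 384 or 387.

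Some called genes are neighbours. In the reference order, which is of another build than the authors' and was used for neighbours only, 18 runs of at least 4 adjacent tested genes were all called in 1 direction, 12 higher and 6 lower, with 78 genes in all. Examples are Marveld3, Zfp612, Cmtr2, Vac14, Il34 and Sf3b3, all higher (median log2 fold change 1.48), and Tuba1b, Tuba1a, Tuba1c and Troap, all lower, with -1.03. Irx2 lies in a run with Ndufs6, Mrpl36 and Eprn, all higher, and Ltb4r1 in a run with Ripk3, Khnyn and Sdr39u1, all lower. Chromosome shifts in log2 fold change ran from -0.22 to 0.33, and 3 of the 20 chromosomes with at least 50 tested genes were shifted by more than 0.2. The chromosome of Marveld3 and Il34 had a median of 0.298, and that of Inhba, which rose, and Edn1, which fell, 0.321. That of Nup37, in a lower run with Tyms-ps, Pmch and Parpbp, had -0.234. Whether the runs go beyond the shifts of their chromosomes was not tested.

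A few genes marked a single line, at least 3 on the log2 scale above or below the 7 others. Line 386 had 1 such high gene and 5 low ones, more than any other line. Dhx34, a helicase of RNA surveillance, stood at 2.38, 3.3, 1.49, 1.85 and 3.04 CPM in the shCtrl lines and 5.95, 54.9 and 4.5 CPM in the shTrp53 lines. Line 386 carried the call (log2 fold change 3.17, SE 0.72, edgeR adjusted p = 0.0145), which ended without line 386 (adjusted p = 0.0688), at 1.12. Mgll, monoacylglycerol lipase, was at 8.68, 7.64, 10.8, 3.79 and 6.74 CPM in the shCtrl lines and 2.01, 0.0651 and 2.27 CPM in the shTrp53 lines. It was nearly absent in line 386 and lower in the other shTrp53 lines too (log2 fold change -2.36, SE 0.65, edgeR adjusted p = 0.029), with the call lost without line 377, 378 or 384 (highest adjusted p = 0.0676). Wdr54, the neurturin receptor Gfra2, the cathepsin Ctsw and the homeobox gene Hoxb2 were low in line 386 but were not called between the groups. Hoxb2 was at 9.95, 9.9, 8.4, 11.8 and 11.3 CPM in the shCtrl lines and 13.1, 0.911 and 9.6 CPM in the shTrp53 lines. Line 387 had Crabp1 at 0 and was low for Dpep1, a membrane dipeptidase at 10.8, 15.7, 16.7, 20.7 and 16.3 CPM in the shCtrl lines and 10.4, 3.25 and 0.222 CPM in the shTrp53 lines, which was not called. Lines 384 and 386 were also below every control for Crabp1. Line 384 had Ifi44 as its high gene. Among controls, line 376 had Cxcl5, a neutrophil chemokine, at 143, 8.6, 15.3, 8.25 and 3.41 CPM in the shCtrl lines and 14.1, 9.76 and 5.66 CPM in the shTrp53 lines. No gene met the rule in lines 377, 378, 382 or 383.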

How the data were processed

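RNA of each cultured line was read by RNA sequencing from SMART-Seq v4 cDNA and a ThruPLEX library, per the labels' protocols. The authors deposited 1 table of whole-number counts per gene for 10 libraries. The submitters' processing notes name STAR 2.5 and Cufflinks 2.2.1, as well as DESeq2 and the mm9 build. What each tool did, the annotation, the filter behind the listed genes and any use of strand were not given in the sources used here, so reads of genes that overlap or run antisense may be shared. Of 12824 rows, 18 named by a bare number were left out (0.332% to 0.491% of a library's counts). Of 12806 names kept, 12765 matched a mouse symbol of the reference tables, 29 an older symbol and 12 none. The reference (GRCm38.p6) is another build than mm9 and served for names, neighbours and RefSeq promoters only.

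Genes were filtered with filterByExpr, scaled by TMM and tested with edgeR 4.0.16 (R 4.3.3; glmQLFit with robust dispersion, glmQLFTest) on the 5 shCtrl and 3 shTrp53 metastatic lines, with Benjamini-Hochberg adjustment over 12120 genes and a threshold of 0.05. SE is the log2 fold change divided by the square root of F. CPM uses TMM factors over all 10 libraries. The 8 lines held 11644562 to 18431216 counts, and no 2 libraries were identical. On simulated counts for this comparison over 12120 genes, the edgeR fit called 55 of 66 genes changed 4-fold, 37 of 67 changed 2-fold, 7 of 67 changed 1.5-fold and 5 of 11920 unchanged genes. Each gene was simulated on its own, without shifts that many genes of a line share, such as those among the shCtrl lines. The calls among unchanged genes therefore do not measure false calls in these lines. Far fewer genes were changed in the simulation than the 21.7% called in the lines. The adjusted threshold is stricter when few genes change. The simulated shares called at each fold change therefore do not give the sensitivity of this comparison. DESeq2 1.42.0, limma 3.58.1, other scalings and filters, a term for line numbers 376 to 378, a 1.5-fold threshold and leaving out each line were tried.

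Families were set by name patterns and lists. The members and lists were chosen with earlier results of these data known, and some patterns were corrected for misplaced names after values were seen. Named genes are, in each of 3 classes, the 10 largest rises and 10 largest falls with a mean of at least 5 CPM in the higher group and no overlap; up to 4 members of each family with at least 3 called in a direction at 2 times the background share or more; and genes that stand apart in 1 line. Other genes named are the remaining called members of a described family, or were chosen after their values were seen. Genes already described for the whole series are named without their values where they recur. Some genes that the rule names are not reported here, in the text or the figures.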

Additional observations from a re-analysis of the deposited data

Results flagged for a closer look

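Among the 212 named genes, 9 had an shCtrl line far from the other 4, with a gap to its nearest neighbour of more than 0.71 of the range on the log2 scale. Chance flags about 1 in 20 groups. Line 376 was highest for Lef1 (11 CPM) and Tbx18 (4.83 CPM), line 377 was lowest for Smad6 (0.0868 CPM), and line 378 was highest for C1qtnf3 (37.3 CPM) and Casp1 (20.2 CPM). Line 382 was lowest for Irf1 (16.9 CPM). Line 383 was lowest for Hcar2 (21.6 CPM), Ly6k (1.19 CPM) and Adss (300.3 CPM).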

How the results depend on the processing

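Other scalings, tests and filters gave 2410 (at least 5 CPM in 3 lines) to 3592 (limma voom) called genes against 2634, with 2631 under RLE scaling, 2627 under upper-quartile scaling, 3431 by DESeq2, 2645 with every gene of at least 1 count and 2635 with all 10 lines in the fit. With the term for line numbers 376 to 378, 981 genes were called, 529 higher and 452 lower. Tested against a 1.5-fold change, 330 were called, 223 higher and 107 lower. Without 1 line at a time, the calls ran from 1154 to 3239, the genes higher from 665 to 1596 and the genes lower from 480 to 1643. A smaller group leaves fewer degrees of freedom; why line 383 raised the count was not tested. Over the 212 named genes, 3182 alternative values were counted as the same, 577 lost the threshold, 4 gained it and 0 changed sign. The 3182 include fold changes less the median of the gene's chromosome, which have no adjusted p and were judged by sign alone. The others kept the direction and side of the threshold. Of the 208 named genes that were called, 110 passed without each line and 98 with the line-number term. No paired analysis was possible because the groups share no line numbers. With 3 shTrp53 lines, 7 of 67 genes changed 1.5-fold were called on simulated counts, in which nearly all genes were unchanged. A gene without a call is thus not shown to be unchanged.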

Other observations

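Enzymes of fatty acid metabolism and cytochrome P450 genes were more often lower than higher. Of 27 genes of fatty acid elongation, desaturation and activation 8 were lower (29.6%, against 10.8% of all genes) and 2 higher (median log2 fold change -0.56). Scd2, a stearoyl desaturase, stood at 495, 279, 240.3, 71.1 and 80.1 CPM in the shCtrl lines and 77.2, 70.2 and 50.0 CPM in the shTrp53 lines (log2 fold change -1.82, SE 0.59, edgeR adjusted p = 0.0499). Acsl5, a long-chain acyl-CoA synthetase, was at 182, 184, 165, 154 and 102 CPM in the shCtrl lines and 78.3, 93.5 and 99.6 CPM in the shTrp53 lines (log2 fold change -0.80, SE 0.19, edgeR adjusted p = 0.0159). The number lower was 2 without line 384, 4 without line 386 or 387 and 5 without line 378. Of 16 cytochrome P450 genes 5 were lower and 1 higher, with a median of -0.70, and the number lower was 2 without line 384 or 387. Scd2, whose groups overlapped because lines 382 and 383 were as low as the shTrp53 lines, lost its call without line 376, 377, 378, 384, 386 or 387 (highest adjusted p = 0.134), and Acsl5 without line 384 or 386 (highest adjusted p = 0.0728).

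Of 10 tested caspases 3 were lower, Casp1, Casp8 and Casp12, and none was higher. Casp1, which matures interleukin 1 beta, was at 11.1, 11.7, 20.2, 13.1 and 12.2 CPM in the shCtrl lines and 7.24, 6.38 and 7.1 CPM in the shTrp53 lines (log2 fold change -0.98, SE 0.23, edgeR adjusted p = 0.016). It lost its call without line 384 or 386 (highest adjusted p = 0.0608), and the number lower was 0 without line 384 or 386 and 1 without line 376, 377 or 378. Of 25 nuclear receptors 5 were higher (20.0%, against 10.9%) and 1, the vitamin D receptor Vdr, was lower. The number higher was 1 without line 377, 384 or 386, 2 without line 378 and 3 without line 387. Of 30 nucleoporins 7 were lower (23.3%, against 10.8%) and 1 higher. The number lower was 1 without line 377 or 384, 2 without line 386 or 387, 3 without line 378 and 4 without line 376. Nup37, a scaffold nucleoporin, was at 140.3, 159, 126, 107 and 91.6 CPM in the shCtrl lines and 55.2, 49.9 and 67.3 CPM in the shTrp53 lines. It held without each line (log2 fold change -1.11, SE 0.19, edgeR adjusted p = 0.0047).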
